A study of Mus musculus with 6 samples.

Results

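The cytochrome P450 enzymes of families 1, 2 and 3, which carry out most oxidation of drugs, toxins and steroids in the liver, were followed through a liver RNA-seq comparison of alkaline sphingomyelinase knockout and wildtype mice. Members were taken by name: every gene symbol made of Cyp, a family number from 1 to 3, a subfamily letter and a gene number, with pseudogenes left out. The rule gave 60 of the 23415 genes in the authors' deposited table, in 16 subfamilies. Alkaline sphingomyelinase, the product of Enpp7, is an enzyme of the gut lining that splits dietary sphingomyelin. The series holds 6 liver libraries on the C57BL/6 strain, 3 whose names begin with K (animals 82, 84 and 85), read as knockout, and 3 whose names begin with W (animals 81, 83 and 90), read as wildtype. No treatment is named for either group. Sex, age and how the deletion was made are not in the labels, and the series' design text speaks of intestine where the sample labels say liver.

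The deposited table gives 1 expression value per group, so no spread between mice and no read depth can be shown. Values are treated as FPKM, fragments scaled for transcript length and sequencing depth, and levels of different genes are therefore compared per length. Each difference is a log2 ratio, knockout over wildtype, with ± before the standard error (SE) that follows from the authors' test statistic. That error comes from the authors' model and is not a measured spread. A gene is called, and said to have fallen or risen, when its q-value in the authors' deposited table is under 0.05. In such bulk tissue, fewer cells of a type and less RNA per cell cannot be told apart.

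Cytochrome P450s are heme enzymes anchored in the endoplasmic reticulum. They take electrons from P450 oxidoreductase, with cytochrome b5 as a second donor, and use them to insert oxygen into their substrates. In hepatocytes the nuclear receptors PXR and CAR and the aryl hydrocarbon receptor raise particular members in response to foreign compounds, and HNF4A keeps many of them on. Inflammation is known to lower many hepatic P450s, and the pulsatile growth hormone of males sets several members apart between the sexes.

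The tissue label and the target gene were checked first. Enpp7 stood at 0.141 FPKM in the knockout column and 0.0541 in the wildtype column and was not tested, so it does not check the labels. Hepatocyte markers were high, with a median level of 1298 FPKM in knockout and 1219 in wildtype livers and 0 of 14 tested called. Alb is listed at 0 in both under the status HIDATA and not as a tested gene, so its 0 is not read as a level. Of the 14 tested, 3 had an unadjusted p under 0.05 in the authors' deposited table. They were the fibrinogen chains Fgb (5949 and 2339 FPKM) and Fga (2871 and 1196), and the glucose-6-phosphatase G6pc (173 and 308). At equal FPKM totals G6pc passed (q = 0.0136), but after quantile normalization it did not (q = 0.0840). Intestinal markers had a median of 0.485 and 0.311 FPKM and 0 calls. The intestinal genes Lct, Sis, Alpi, Muc2, Cdx1 and Cdx2 were at most 0.233 FPKM, while Fabp2 (42.9 and 54.7), Anpep (40.1 and 41.6), Cdhr5 (34.9 and 31.9) and Tff3 (48.8 and 23.9) were higher. The 6 kidney markers were all listed at 0, and so were 3 of 4 markers of lung club cells. Inflammatory transcripts differed between the groups. Of 18 acute phase transcripts 12 rose, and their summed level was 62602 FPKM against 10057. Of 10 tested neutrophil markers 4 rose (summed level 110 against 6.41 FPKM). Of 11 tested Kupffer cell and macrophage markers 2 rose, Marco and C1qa (526 against 333 FPKM summed over the list). All 11 lay above 0, and 8 had an unadjusted p under 0.05 in the authors' deposited table. Both calls were lost at equal FPKM totals (q of 0.0714 and 0.253). After quantile normalization Marco kept its call (q = 0.0170) and C1qa did not (q = 0.0591). None of these markers was listed at 0 in both groups. Their part in any P450 difference given here was not tested.

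Few P450s passed the test. Of the 60 members 39 were tested by the authors, and 2 of them were called, both lower in knockout livers: Cyp2a5 and Cyp2c55. That is 5.13% of the tested members, while 1.08% of all 11515 tested genes were called in either direction. Lower calls made up 0.504% of all tested genes and higher calls 0.573%, and 0 members were called higher. At an unadjusted p under 0.05 the same deposited test gave 4 members lower (Cyp2a5, Cyp2c55, Cyp2a4 and Cyp2b10) and 1 higher (Cyp2c40). These are 5 of the 39 tested members, beside 5.29% of all tested genes. Ratios lay below 0 for 22 members (56.4%) and above 0 for 17, and 50.1% of all tested genes with a ratio lay below 0. The median log2 ratio of the members was -0.05, against -0.0012 over all tested genes. For 28 of the 39 the ratio was within 1 SE of 0. The 95% interval stayed inside a log2 ratio of ±1 for 26. Of the other 13, the interval left out 0 for 5, the genes with an unadjusted p under 0.05, and for 8 it held both 0 and a ratio of 1 or -1.

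**Figure D1:**
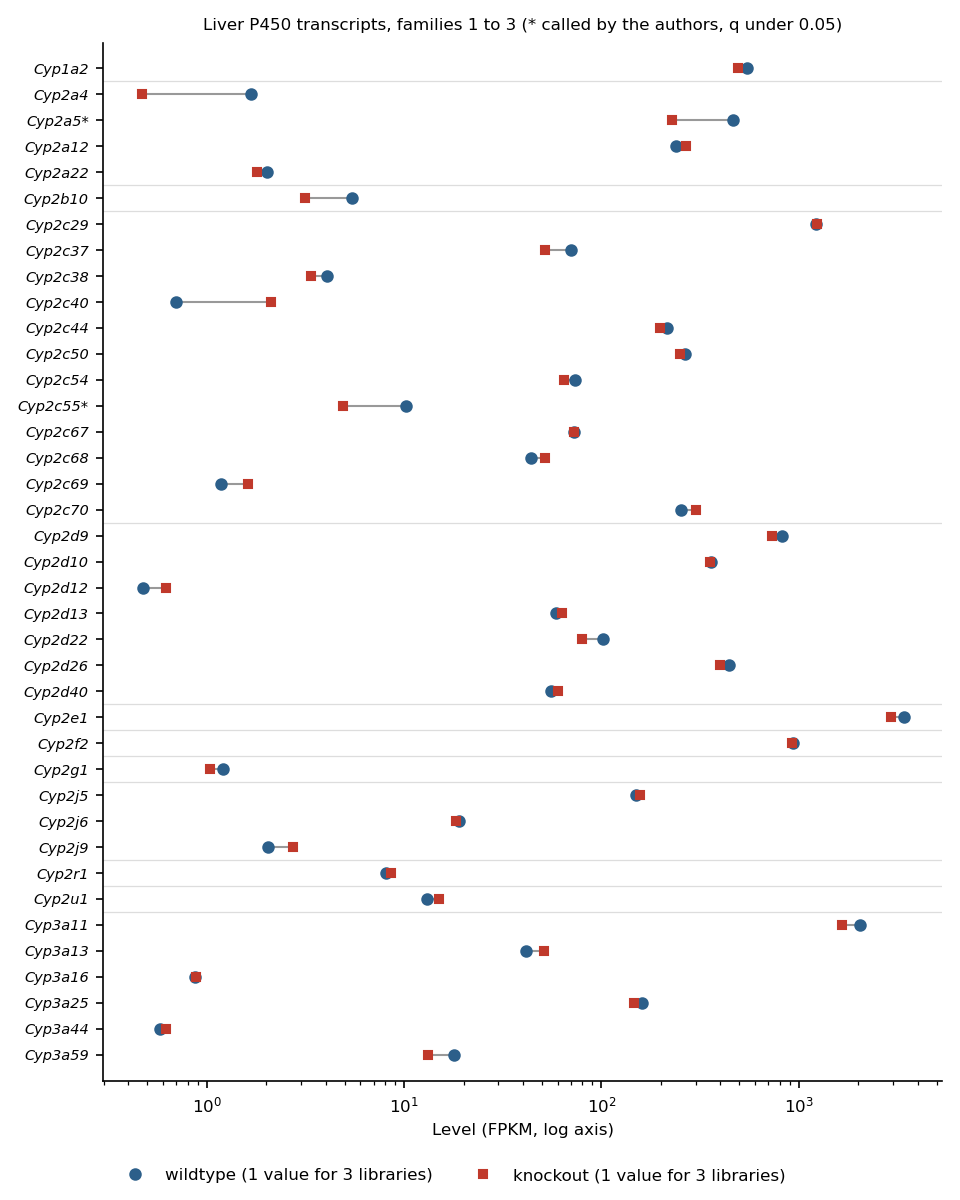
Level of each tested P450 in FPKM (log axis), with wildtype as blue circles and knockout as red squares, 1 value per group for 3 libraries each, ordered by subfamily and with an asterisk for called genes. Most pairs of symbols lie close together, while Cyp2a5 (462 in wildtype, 229 in knockout) and Cyp2c55 (10.2 and 4.89) are set apart. The widest gaps are those of the low and uncalled Cyp2a4 (1.67 and 0.467) and Cyp2c40 (0.698 and 2.11).

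The bulk of P450 message was in a few genes, and the 6 highest of them were not called. Cyp2e1 was the highest member, followed by Cyp3a11, Cyp2c29, Cyp2f2, Cyp2d9 and Cyp1a2, in this order in both groups. These 6 held 74.0% of the summed FPKM of all members in wildtype and 73.4% in knockout livers. Of the 10 highest members of each group 8 were shared. There were 15 members with a mean of at least 100 FPKM, and they made up 95% of the wildtype sum. Of these, Cyp2a5 was called. The other 14 had ratios from -0.30 to 0.25, all within 1 SE of 0. For Cyp2e1 and Cyp3a11 the 95% intervals ran from -1.09 to 0.65 and from -1.08 to 0.48, so both held 0 and -1. After quantile normalization the ratios of these genes were -0.98 and -0.50, neither called. The sum over all 60 members was 10845 FPKM in knockout and 12127 FPKM in wildtype livers. That is 89.4% of the wildtype value and a log2 ratio of -0.16, for which there is no test. After quantile normalization the ratio of the sum was -0.47.

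The Cyp2a subfamily held the clearest difference. Cyp2a5, the mouse coumarin 7-hydroxylase, which also oxidises nicotine, lies on chromosome 7 (26835339 to 26843264, mm10). It stood at 462 FPKM in wildtype livers, 7th highest of the members, and at 229 FPKM in knockout livers, 49.6% of that level. The log2 ratio was -1.01 ± 0.25 (95% interval -1.51 to -0.52), with p = 6.03e-05 and q = 0.00891 in the authors' deposited table. Its close relative Cyp2a4, a testosterone 15-alpha-hydroxylase of chromosome 7 (26307192 to 26315088), was far less abundant, at 1.67 FPKM in wildtype and 0.467 FPKM in knockout livers. The ratio was -1.84 ± 0.55, the lowest of the tested members, and missed the threshold at q = 0.0641 in the authors' deposited table. Other scalings of the group columns took it past the threshold: with equal FPKM totals q was 0.0163, and after quantile normalization 0.0462. With 1 FPKM added to both values the ratio was -0.87, and with 0.5 FPKM it was -1.17. Cyp2a12, a steroid and bile acid hydroxylase, was the second abundant member, at 267 FPKM in knockout and 239 in wildtype livers (0.16 ± 0.24). Cyp2a22 was low, at 1.80 and 2.02 FPKM (-0.17 ± 0.38). The summed level of the 4 genes was 499 FPKM against 704 in wildtype (log2 ratio -0.50). Without Cyp2a5 it was 270 against 242 FPKM (0.15).

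The upstream sequences of the pair with the lowest ratios in the subfamily are shown because the genes are near-copies that cannot be fully separated by short reads. The windows are from RefSeq (GRCm38.p6, plus strand), chr7:26835089-26835338 for Cyp2a5 and chr7:26306942-26307191 for Cyp2a4, and both end 1 base before the annotated start. Capitals mark the bases at which the aligned windows differ.
Cyp2a5: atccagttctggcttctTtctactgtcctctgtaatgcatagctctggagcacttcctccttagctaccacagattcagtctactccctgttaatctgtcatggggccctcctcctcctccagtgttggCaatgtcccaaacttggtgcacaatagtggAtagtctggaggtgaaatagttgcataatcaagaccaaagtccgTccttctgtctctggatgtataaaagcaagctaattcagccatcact
Cyp2a4: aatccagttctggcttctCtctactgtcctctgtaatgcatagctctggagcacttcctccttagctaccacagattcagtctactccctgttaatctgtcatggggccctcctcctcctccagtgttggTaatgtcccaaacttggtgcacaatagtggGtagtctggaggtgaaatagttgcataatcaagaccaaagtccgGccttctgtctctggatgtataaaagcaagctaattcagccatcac
Over the whole windows of 250 bases before to 50 after the start, 5 of 299 aligned bases differed, an identity of 98.3%. The transcripts overlap as well. All stretches of 50 bases, the read length, were compared in the GENCODE vM21 transcripts. Of those of Cyp2a5, 28.1% also occur in Cyp2a4, and 36.1% of those of Cyp2a4 occur in Cyp2a5. Counted against any other gene, the shares are 37.0% for Cyp2a5 and 38.0% for Cyp2a4. No source used here says how the authors assigned reads that match more than 1 gene, so the value of Cyp2a4 by itself is uncertain. The sum of both genes was 229 FPKM in knockout and 464 in wildtype livers (log2 ratio -1.01). Cyp2a5 makes up nearly all of this sum, so it says little about Cyp2a4.

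**Figure D2:**
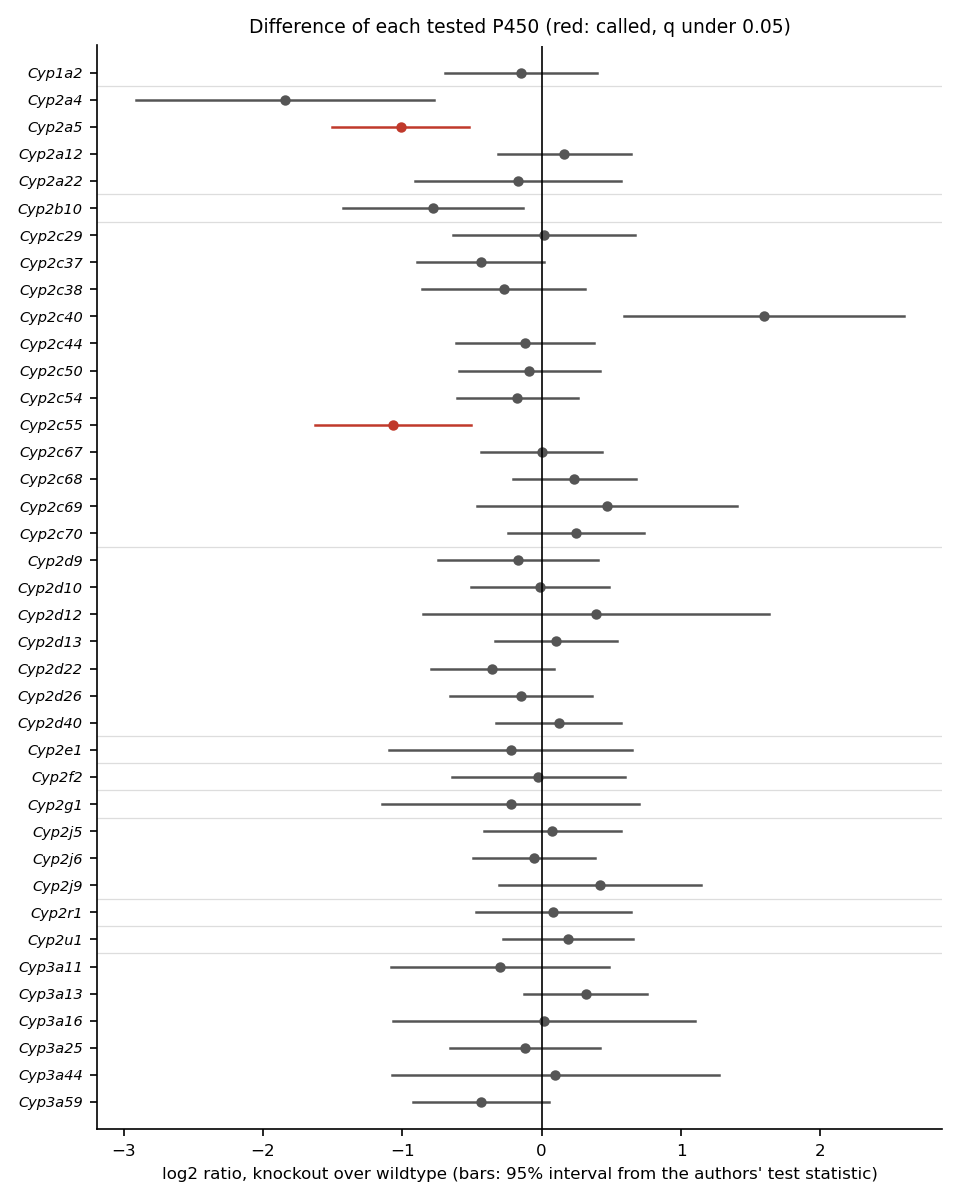
Log2 ratio of knockout over wildtype for each of the 39 tested P450s, with the 95% interval from the authors' test statistic as bars and called genes in red. The intervals of Cyp2a5 (-1.51 to -0.52) and Cyp2c55 (-1.62 to -0.51) lie below 0, as do those of Cyp2a4 and Cyp2b10, which were not called, and the interval of Cyp2c40 lies above 0.

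Of the 5 Cyp2b genes, Cyp2b10, a classic target of CAR, was the single one tested. It stood at 3.16 FPKM in knockout and 5.42 FPKM in wildtype livers, a ratio of -0.78 ± 0.33 with p = 0.0179 and q = 0.571 in the authors' deposited table. It was therefore not called. Cyp2b9, known for higher expression in females, was near the floor at 0.425 and 0.337 FPKM. Cyp2b13 was listed at 0.0119 FPKM in knockout and at 0 in wildtype livers, and Cyp2b19 and Cyp2b23 at 0 in both.

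Cyp2c is the largest subfamily, with 15 genes of which 12 were tested, 1 was called lower and 0 higher. Cyp2c55, which hydroxylates arachidonic acid and is known as an inducible gene, lies on chromosome 19 (39007019 to 39042687, mm10). It stood at 10.2 FPKM in wildtype and 4.89 FPKM in knockout livers, 47.8% of the wildtype level. The ratio was -1.06 ± 0.29 (95% interval -1.62 to -0.51), with p = 0.000193 and q = 0.0224 in the authors' deposited table. In contrast to Cyp2a5, its transcript is nearly free of near-copies, since 0.514% of its 50-base stretches occur in another gene. The sequence before its start is given for comparison with the Cyp2a pair (RefSeq, GRCm38.p6, plus strand, chr19:39006769-39007018), with the letters TATAAA of the core promoter in capitals.
Cyp2c55: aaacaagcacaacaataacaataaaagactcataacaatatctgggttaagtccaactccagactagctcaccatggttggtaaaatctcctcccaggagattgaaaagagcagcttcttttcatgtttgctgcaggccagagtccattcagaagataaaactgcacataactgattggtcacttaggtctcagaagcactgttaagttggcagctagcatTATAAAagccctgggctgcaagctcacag

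The rest of the Cyp2c subfamily lay on both sides of 0. Cyp2c29, its most abundant member, was at 1232 FPKM in knockout and 1217 in wildtype livers (0.02 ± 0.33). Cyp2c70, which converts bile acids into the muricholic acids of mice, was at 300 and 252 FPKM (0.25 ± 0.25), and Cyp2c44, an arachidonic acid epoxygenase, at 198 and 215 FPKM (-0.12 ± 0.25). None of these was called. Cyp2c37 was at 51.6 and 69.9 FPKM (-0.44 ± 0.23), Cyp2c50 at 249 and 265 (-0.09 ± 0.26) and Cyp2c54 at 64.9 and 73.2 (-0.17 ± 0.22). These 3 genes share sequence, and their sum was 366 FPKM against 408 (log2 ratio -0.16). Cyp2c38 was at 3.37 and 4.07 FPKM (-0.27 ± 0.30).

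Cyp2c40 had the highest ratio of the tested members but at a low level. It stood at 2.11 FPKM in knockout and 0.698 FPKM in wildtype livers, a ratio of 1.59 ± 0.51 with p = 0.00189 and q = 0.122 in the authors' deposited table, so it was not called. With 1 FPKM added to both values the ratio was 0.87. Of its 50-base stretches 60.3% occur in other genes, among them Cyp2c69, Cyp2c67 and Cyp2c68. Cyp2c67 was level at 72.4 and 72.3 FPKM, Cyp2c68 stood at 52.0 and 44.2 FPKM (0.24 ± 0.22), and Cyp2c69 at 1.62 and 1.17 FPKM (0.47 ± 0.47). Summed over the 4 near-copies, a grouping made after the values were seen, the level was 128 FPKM against 118 (log2 ratio 0.11). Cyp2c67 and Cyp2c68 make up most of this sum, so it says little about Cyp2c40. The Cyp2c subfamily as a whole summed to 2232 FPKM in knockout and 2226 in wildtype livers, and to 2227 against 2216 without Cyp2c55.

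The remaining abundant subfamilies had no called gene. Cyp2e1, which oxidises ethanol and acetaminophen, had 2927 FPKM in knockout and 3412 in wildtype livers (-0.22 ± 0.45) and ranked 15th of all genes in the wildtype column. Its interval from -1.09 to 0.65 was among the widest of the abundant members. After quantile normalization its ratio was -0.98, still not called. Cyp1a2, which demethylates caffeine and is induced through the aryl hydrocarbon receptor, was at 494 and 547 FPKM (-0.15 ± 0.28). Its neighbour Cyp1a1, a sensitive target of the same receptor, was at 0.445 and 0.673 FPKM and not tested. Cyp2f2, known for activating naphthalene in lung club cells, was at 920 and 935 FPKM (-0.02 ± 0.32).

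In the Cyp2d subfamily 7 of 9 genes were tested and 0 called, with ratios from -0.35 to 0.39 and none with an unadjusted p under 0.05. Cyp2d9, a steroid 16-alpha-hydroxylase with higher expression in males, led with 734 FPKM in knockout and 825 in wildtype livers (-0.17 ± 0.29). Cyp2d26 was at 401 and 444 FPKM and Cyp2d10 at 355 and 358. Cyp2d22, often set beside human CYP2D6, had the lowest p of the subfamily and stood at 80.0 and 102 FPKM (-0.35 ± 0.23). Cyp2d13 (63.0 and 58.7), Cyp2d40 (60.2 and 55.3) and the low Cyp2d12 (0.620 and 0.473) were above their wildtype values by less than 1 SE. The subfamily summed to 1694 FPKM against 1843 (log2 ratio -0.12).

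The Cyp3a subfamily likewise had 6 tested genes of 9 and 0 called, with 0 at an unadjusted p under 0.05. Cyp3a11, the main drug-oxidising member of the family and a PXR target, was at 1658 FPKM in knockout and 2039 in wildtype livers, a ratio of -0.30 ± 0.40 with an interval from -1.08 to 0.48. Cyp3a25 was at 147 and 160 FPKM (-0.12 ± 0.27), and Cyp3a59, which had the lowest p here, at 13.2 and 17.8 (-0.44 ± 0.25). These 2 genes share sequence, and their sum was 160 against 177 FPKM. Cyp3a13, which sits away from the others on chromosome 5, pointed the other way at 51.4 and 41.3 FPKM (0.32 ± 0.23). Cyp3a16 (0.876 and 0.867) and Cyp3a44 (0.618 and 0.577), known as fetal and female forms, were near the floor in both groups.

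Among the smaller subfamilies 0 of 6 tested genes were called in the authors' deposited table, and 0 had an unadjusted p under 0.05. Cyp2j5, an arachidonic acid epoxygenase of liver and kidney, was at 157 FPKM in knockout and 149 in wildtype livers (0.07 ± 0.25), Cyp2j6 at 18.3 and 19.0, and Cyp2j9 at 2.75 and 2.05 (0.42 ± 0.37). Cyp2r1, a vitamin D 25-hydroxylase, was at 8.55 and 8.08 FPKM (0.08 ± 0.28). Cyp2u1, a fatty acid hydroxylase, was at 14.9 and 13.1 FPKM (0.19 ± 0.24). Cyp2g1, a gene of the olfactory lining, was at 1.04 and 1.21 FPKM (-0.22 ± 0.47).

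The other 21 members were not tested by the authors and had levels of at most 0.673 FPKM in either group. Cyp2b19, Cyp2b23, Cyp2j11, Cyp2j12, Cyp2w1 and Cyp3a41b were listed at 0 in both groups. Cyp1b1, an estradiol hydroxylase found mainly outside the liver, stood at 0.138 FPKM in knockout and 0.143 in wildtype livers, Cyp2s1 at 0.124 and 0.246, and Cyp2t4 at 0.106 and 0.0470. Cyp2d11 was at 0.394 and 0.467 FPKM, Cyp2d34 at 0.203 and 0.186, and Cyp2c39 at 0.438 and 0.444. Cyp2c65, Cyp2c66, Cyp2j8, Cyp2j13, Cyp3a41a and Cyp3a57 all stayed between 0.0107 and 0.0609 FPKM. At such levels no difference was detectable.

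Within an array, neighbours had ratios of different size. The members are strung along the genome in arrays of copies, and 53 of the 60 sit in 6 groups of neighbours less than 1 Mb apart. The array on chromosome 7 holds 13 genes of the Cyp2a, 2b, 2f, 2g, 2s and 2t subfamilies over 1356 kb. Its 7 tested genes had a median ratio of -0.22, and 6 of the 7 lay below 0, with Cyp2a4, Cyp2a5 and Cyp2b10 lowest. At equal FPKM totals all 7 lay below 0, but that scaling moves every log2 ratio by -0.19. Between and beyond them Cyp2g1, Cyp2a22, Cyp2a12 and Cyp2f2 were all within 1 SE of 0. The array on chromosome 19 holds 14 Cyp2c genes, with Cyp2c55 at its first end and a median of 0.00045 over 11 tested genes. In the arrays of Cyp2d on chromosome 15, Cyp2j on chromosome 4 and Cyp3a on chromosome 5 the medians were -0.01, 0.07 and -0.12. Of the 5 tested genes of the Cyp3a array 3 lay below 0 as deposited. All 5 did at equal FPKM totals, where the same shift by itself turns small positive ratios negative.

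**Figure D3:**
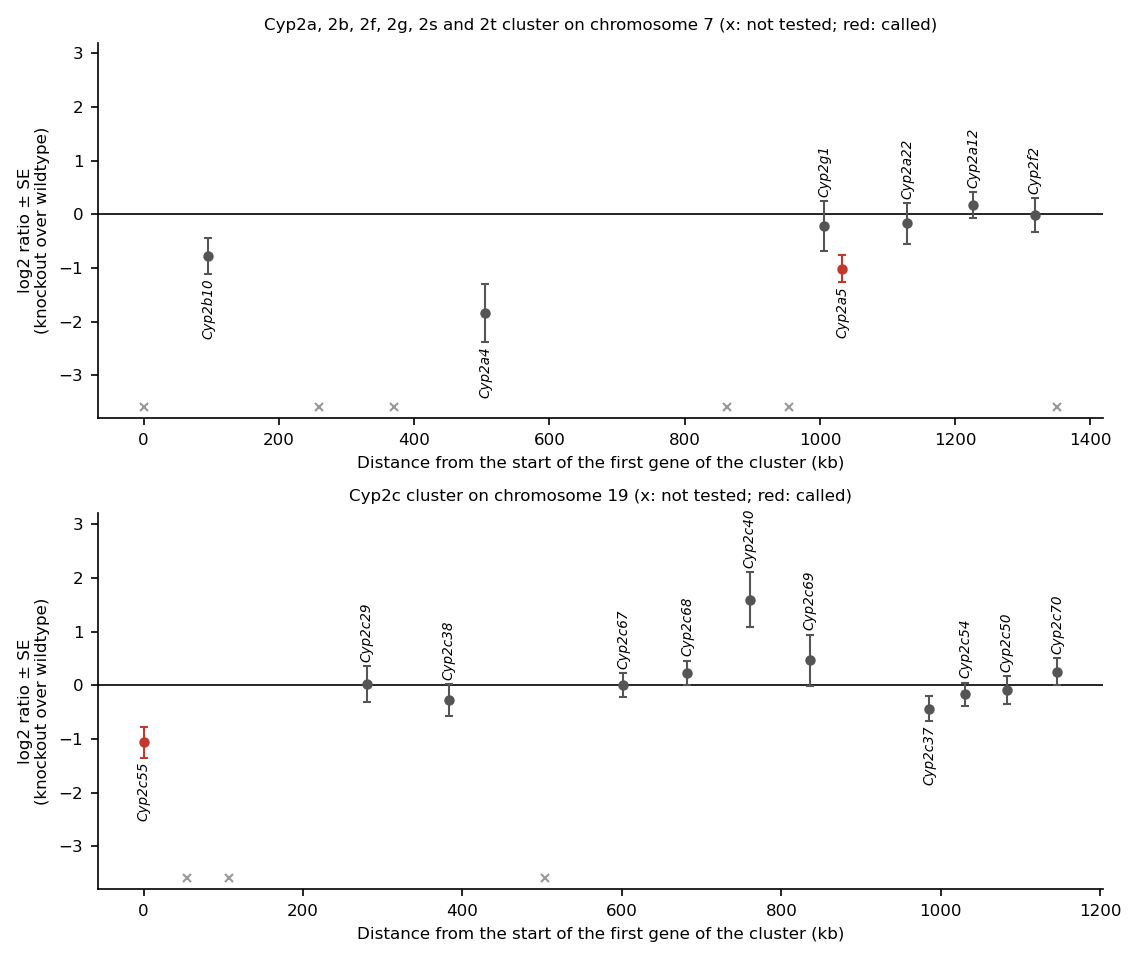
Log2 ratio of knockout over wildtype (± SE of the authors' model) against distance along the gene arrays of chromosome 7 (upper) and chromosome 19 (lower), with called genes in red and untested genes as crosses at the bottom. In the upper array Cyp2b10, Cyp2a4 and Cyp2a5 lie below 0 by more than 1 SE while Cyp2a12 and Cyp2f2 do not, and in the lower array Cyp2c55 and Cyp2c40 lie on opposite sides.

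The near-copy problem touches many members. Of the 59 members found in GENCODE vM21, 19 share more than 20% of their 50-base stretches with another gene and 17 share less than 1%. Cyp3a41a is the extreme at 98.6%. The 14 tested members with more than 20% shared had a median ratio of -0.06, and the 24 others that were found had -0.07. Without regard to sign the medians were 0.20 and 0.18. Such medians do not show how shared reads affected any single gene.

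Promoters were examined for the letters of known liver factors, since HNF4A and C/EBP proteins drive many of these genes. RefSeq windows of 300 bases (GRCm38.p6) were found for 52 members. Both strands were searched, and the motifs may overlap one another. The HNF4-type letters CAAAGTCC occurred in 13 members (25% of 52) and in 1.42% of all 32851 windows. All 13 matches ran in the direction of the gene and began 45 to 125 bases before its start. They are shown with 6 bases on each side for the genes on which the results turn and for abundant members, with the motif in capitals. Cyp2a5 lies at chr7:26835277-26835296 and Cyp2a4 at chr7:26307131-26307150 (plus strand), Cyp2c40 at chr19:39812846-39812865, Cyp2c67 at chr19:39649154-39649173, Cyp2c70 at chr19:40187337-40187356 and Cyp3a11 at chr5:145879950-145879969 (minus strand).
Cyp2a5: caagacCAAAGTCCgtcctt
Cyp2a4: caagacCAAAGTCCggcctt
Cyp2c40: ttgagaCAAAGTCCatttgg
Cyp2c67: ttgagaCAAAGTCCatttgg
Cyp2c70: caaactCAAAGTCCaaactc
Cyp3a11: gagtacCAAAGTCCagtgat
The genes with these letters had ratios on both sides of 0. The 9 tested ones had ratios from -1.84 for Cyp2a4 to 1.59 for Cyp2c40, both low and uncalled genes with near-copies. Their median was 0.02, and the 23 tested members without the letters had a median of -0.09. Whether the letters go with the ratio was not tested. Cyp2c55 was among the members without the letters. The letters TATAAA were present in 28 of the 52 members (53.8%, against 13.6% of all windows), AGGTCA, bound by nuclear receptors, in 34.6% against 16.3%, and TTGCNNAA, of C/EBP type, in 26.9% against 10.8%. The GCGTG core bound by the aryl hydrocarbon receptor occurred in 17.3% against 32.4%. The STAT-type letters TTCNNNGAA were in 3.85% against 8.30%, and the AP-1 letters TGACTCA in 3.85% against 5.20%. Many members are copies of one another, so these shares do not count independent promoters, and a match is not a measured binding site.

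The electron supply of the P450s held 1 further call. Por, the oxidoreductase that passes electrons to every microsomal P450, fell from 312 FPKM in wildtype to 167 FPKM in knockout livers (-0.90 ± 0.25, q = 0.0401 in the authors' deposited table). It was the single called gene among 12 tested genes of electron transfer and heme supply, of which 8 lay below 0, with a median of -0.13. Alas1, the rate-limiting enzyme of heme synthesis, was at 206 and 320 FPKM (-0.64 ± 0.29) and did not pass, at q = 0.728 in the authors' deposited table. Cytochrome b5, listed as Cyb5, was at 1138 and 1259 FPKM (-0.15 ± 0.26), and its reductase Cyb5r3 at 258 and 326 (-0.34 ± 0.25).

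The regulators showed no call. Of 26 tested receptors and liver transcription factors 0 were called in either direction in the authors' deposited table, 3 had an unadjusted p under 0.05, and the median was -0.05. PXR (Nr1i2) was at 32.0 FPKM in knockout and 38.8 in wildtype livers (-0.28 ± 0.23). CAR (Nr1i3) was at 40.1 and 54.8 FPKM (-0.45 ± 0.26) and the aryl hydrocarbon receptor (Ahr) at 4.77 and 6.00 (-0.33 ± 0.24). Hnf4a was at 142 and 152 FPKM, and the corepressor SHP (Nr0b2) at 33.0 and 33.4. The 3 with low unadjusted p were Foxa2 (15.6 and 10.9 FPKM, 0.52 ± 0.24), the clock-controlled factor Hlf (7.68 and 10.8, -0.50 ± 0.23) and the repressor Bhlhe40 (30.8 and 48.9, -0.67 ± 0.23). At equal FPKM totals Bhlhe40 passed at q = 0.0136, but after quantile normalization it did not (q = 0.154).

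**Figure D4:**
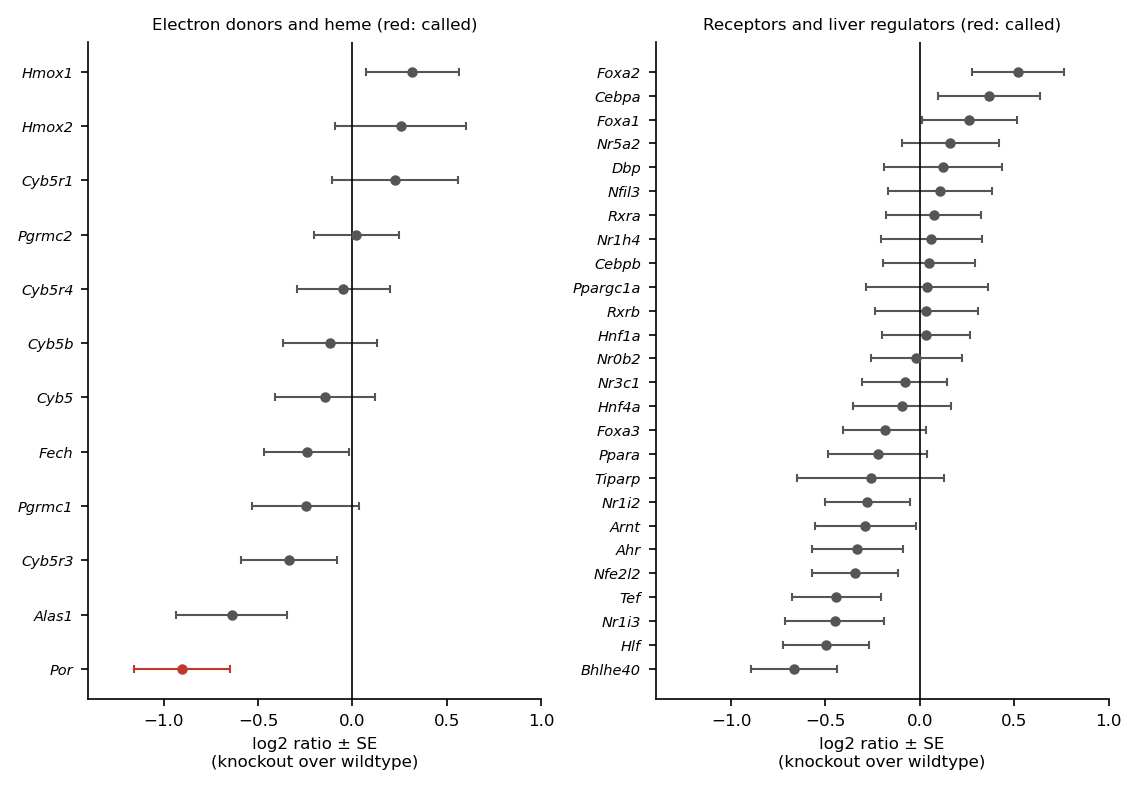
Log2 ratio of knockout over wildtype (± SE of the authors' model) for the tested genes of electron transfer and heme supply (left) and of receptors and liver regulators (right), with called genes in red. Por (-0.90) is the single called gene, and PXR, CAR and the aryl hydrocarbon receptor (Nr1i2, Nr1i3 and Ahr) all lie between -0.45 and -0.28.

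Growth hormone signalling was examined because it sets sex-dependent P450s. Cish, a feedback inhibitor that this hormone induces, rose, with 21.0 FPKM in knockout and 7.77 in wildtype livers (1.44 ± 0.28, a q-value of 0.000105 in the authors' deposited table), and was the single call among 9 tested genes, whose median was 0.31. Socs2, another such inhibitor, was at 9.79 FPKM in knockout and 4.70 in wildtype livers (1.06 ± 0.33) and the repressor Bcl6 at 6.84 and 11.5 (-0.75 ± 0.26), with q of 0.0877 and 0.191 in the authors' deposited table. At equal FPKM totals Bcl6 passed at q = 0.0190, but after quantile normalization it did not (q = 0.194). Y-linked Ddx3y (8.78 and 9.52 FPKM) and Eif2s3y (20.7 and 22.7) were present at like levels in both columns, and Xist was near the floor at 0.00337 and 0.0491. Of 13 tested sex-dependent liver transcripts 1 fell, Acot3, a peroxisomal thioesterase (0.657 and 3.84 FPKM), and 1 rose, the fatty acid elongase Elovl3 (57.3 and 32.8). The call of Elovl3 stood at q = 0.0484 in the authors' deposited table and was lost at equal FPKM totals (q = 0.247) and after quantile normalization (q = 0.0591). The hydroxysteroid dehydrogenase Hsd3b5, a male-predominant gene, was at 209 and 128 FPKM and did not pass. The male-predominant Cyp2d9 and the female-predominant Cyp2a4 were not called, as given above.

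Many hepatic P450s, among them Cyp2e1, Cyp1a2 and Cyp2a5, are known to be concentrated around the central vein, so markers of both ends of the lobule were set beside them. Of 16 tested pericentral genes outside the P450s 1 fell, the fatty aldehyde dehydrogenase Aldh3a2 (51.5 FPKM in knockout, 94.1 in wildtype, -0.87 ± 0.23), 0 rose, and the median was -0.12. Glul, the glutamine synthetase of the innermost pericentral cells, was at 291 and 353 FPKM (-0.28 ± 0.27) and was not called. The amino acid transporter Slc1a4 (1.65 and 0.786) and the cation transporter Slc22a3 (1.08 and 1.78) had an unadjusted p under 0.05 in opposite directions. Of 15 tested periportal genes 0 were called in the authors' deposited table and 2 had an unadjusted p under 0.05, the urea cycle enzyme Asl (301 and 500 FPKM) and Agxt2l1 (38.9 and 60.4). Their median was -0.17. At equal FPKM totals Asl and Agxt2l1 passed, at q of 0.0238 and 0.0248, but after quantile normalization neither did (q of 0.0880 and 0.254).

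The direction of small differences depends on how the group columns are scaled. The listed FPKM sum to 646306 in knockout and 564749 in wildtype livers, and the members made up 1.68% and 2.15% of these sums. The 18 acute phase transcripts held 62602 FPKM of the knockout sum and 10057 of the wildtype sum, and Alb, listed at 0, adds to neither. Scaling both columns to the same sum moves every log2 ratio by -0.19, and the median of all tested genes became -0.20. Ratios then lay below 0 for 32 members and above 0 for 7, where 22 and 17 were found as deposited. The share of all tested genes below 0 was not counted under this scaling, so the 32 are not read as a result about P450s. Over all genes 140 were called lower and 49 higher, compared with 58 and 66. Cyp2c29, Cyp2j5, Cyp2r1 and Cyp2u1 are among the members whose ratio changed sign. After quantile normalization 24 members lay below and 14 above 0. Cyp2a5 and Cyp2c55 were called lower under each of these scalings, with q of 0.000354 and 0.00158 at the same sum.

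**Figure D5:**
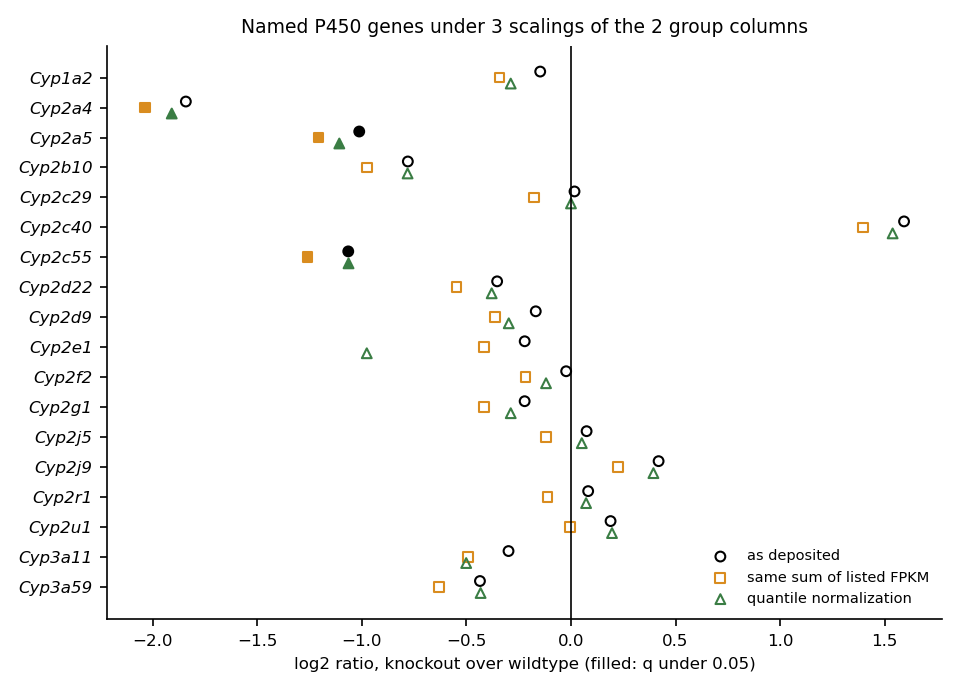
Log2 ratio of knockout over wildtype for the 18 named P450s as deposited (circles), with both columns scaled to the same sum (squares) and after quantile normalization (triangles), filled where q is under 0.05. Cyp2a5 and Cyp2c55 are filled under all 3, Cyp2a4 under 2 of them, and several members near 0 lie on either side of it depending on the scaling.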

How the data were processed

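The authors deposited a full gene table and a shorter one of differential genes, each with 1 value per group. The labels' protocols name Trizol RNA, TruSeq libraries and an Illumina instrument, and the submitters' processing notes name Bowtie2 and mm10. Other tools are not given in the sources used here. The unit is not named per the file headers. The layout is that of Cuffdiff, so the deposited values were treated as FPKM. The deposited log2 ratio, held as a score because rows at 0 in 1 group carry placeholder extremes, was turned round to knockout over wildtype and differed from the log2 of the deposited FPKM values by at most 1.29e-05 over tested genes. The authors' p-value follows a normal test statistic (largest difference 2.63e-06), and the authors' q-value is its Benjamini-Hochberg adjustment over 11515 tested genes (largest difference 1.99e-06). The table holds 0 columns of other series.

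Because the tables give no value per library, the planned limma fit was replaced by the authors' test with q under 0.05, which the design allowed for. SE is the log2 ratio divided by the test statistic. 1 was added to each start. Whether each library is a separate mouse rests on the animal numbers in the names, read depth is unknown, and p-values measure only the spread in the authors' model. Sums over genes carry no test. Shared 50-base stretches were counted over GENCODE vM21 transcripts, and promoters are RefSeq windows (GRCm38.p6) from 250 bases before to 50 after each start. The recalculation of calls under other scalings was run on simulated data with noise drawn from the deposited SE. That run cannot check the SE itself, and the main calls are those of the authors. Python 3.11.15, pandas 2.3.3, NumPy 2.4.6, SciPy 1.17.1 and Matplotlib 3.10.9 were used. The alternatives were other scalings, filters, pseudocounts and call rules.

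Named members are those called, those with an unadjusted p under 0.05, and in each subfamily the most abundant gene and the tested gene with the lowest p; the rest are given so that every member is accounted for. Named genes of the lists are those called or with an unadjusted p under 0.05, and a few fixed ones (Por, Cyb5a, Cyb5r3, Nr1i2, Nr1i3, Ahr, Hnf4a and Nr0b2). Glul, Xist, Ddx3y, Eif2s3y and the single hepatocyte and intestinal markers were chosen after their values were seen. Marco and C1qa are named as called genes, and apart from them the other marker lists are given as counts and sums. The members and all lists were chosen with earlier results of these data known.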

Additional observations from a re-analysis of the deposited data

How the results depend on the processing

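No paired analysis was possible because the tables hold 1 value per group and the animal numbers of the groups do not overlap. For the same reason no library could be left out, and call counts without a filter could not be made, since untested genes have no test. The count of members called lower was 1 at q under 0.01 and 4 at an unadjusted p under 0.05, and the count called higher was 1 at an unadjusted p under 0.05. With both columns scaled to the same sum of FPKM, the log2 ratio of the member sum was -0.36, that of the Cyp2a sum -0.69, of the Cyp2c sum -0.19 and of the Cyp2d sum -0.32. After quantile normalization the member sum was at -0.47 and Cyp2e, which is Cyp2e1 alone, at -0.98. A sum was held to have moved when it shifted by more than the SE carried over from its members, the median when it shifted by more than the median SE of the members, and a count when it changed by more than 1.5 times. Of the alternative values of the counts, the median and the sums, 37 stayed within these limits and 9 moved. Among those that stayed, the lower count was 3 under both scalings, and the median was -0.25 at the same sum. Single named genes were judged by their call under a scaling or filter, and by 1 SE under a pseudocount. On that basis 103 values stayed, 0 called ratios reversed, 2 newly passed (Cyp2a4 under both scalings) and 3 moved with a pseudocount, Cyp2a4 to -0.87 and -1.17 and Cyp2c40 to 0.87. The 103 include Cyp2e1 after quantile normalization and the 4 uncalled genes whose ratio changed sign at the same sum, Cyp2c29, Cyp2j5, Cyp2r1 and Cyp2u1. The median SE of 0.274 limits what could be called. Over the whole table, no called gene had a log2 ratio closer to 0 than 0.78.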

Other observations

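The P450s of families 4 and above, which mostly handle fatty acids, sterols and bile acids, were counted for comparison. Of 35 such genes 25 were tested, and 4 were called lower and 0 higher in the authors' deposited table. Of all 11515 tested genes 0.504% were called lower and 0.573% higher. An unadjusted p under 0.05 in the same test was found for 7 of the 25, beside 5.29% of all tested genes. The median log2 ratio of the 25 was -0.11. The summed level of the 35 genes was 1032 FPKM in knockout and 1096 FPKM in wildtype livers. They were not tested against families 1 to 3.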
